A study of Mus musculus with 20 samples.

Results

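Gene desert regions, taken here as acetylated regions lying far from any protein-coding promoter, were examined in the developing mouse face. H3K27ac, a histone mark of active promoters and enhancers, had been mapped by ChIP-seq in 10 libraries of mixed cells from the facial tissue of wild-type (WT) embryos, each of 1 tissue and 1 stage. The 4 libraries of e11.5 came from both jaw processes (mandibular and maxillary) and from the nasal plates (medial and lateral), and the 3 libraries of each later stage, e13.5 and e15.5, from both jaw processes and the nose. Peaks of the 10 lists on chromosomes 1 to 19 and X were merged where they overlapped or touched, which gave 42339 regions. A region was kept as a desert region when it lay more than 100 kb from every protein-coding transcript start and more than 1 kb from any other transcript start of the GENCODE vM21 annotation. This left 6768 regions, 16.0% of all regions and part of the 27436 that lay more than 1 kb from every start and are called distal. The other 20668 distal regions, which lie within 100 kb of a protein-coding start, are called other distal regions and serve as the comparison.

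An enhancer is a stretch of noncoding DNA bound by transcription factors that raises transcription of a gene on the same chromosome, and it reaches its promoter by looping of the chromatin. Many regulators of embryonic development sit beside long stretches without other protein-coding genes, and enhancers in such deserts can act over very long distances, skipping nearer genes. In humans, deletions and rearrangements in the desert before SOX9, a regulator of neural crest and cartilage, are a known cause of Pierre Robin sequence, in which the lower jaw is small. H3K27ac peaks mark candidate enhancers only, and the flanking genes named here are neighbours by position.

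Among the widest desert regions with a peak in all 10 libraries, 5 are given here by their middle 250 bases of the part covered in every library, because they are the members seen at every stage and in every tissue. The sequences are the plus strand of mm10 (GRCm38), named by the flanking protein-coding genes, and capitals mark a match on either strand to 1 of the 14 transcription factor motifs described further on.
Npvf to Nfe2l3, chr6:51172596-51172845: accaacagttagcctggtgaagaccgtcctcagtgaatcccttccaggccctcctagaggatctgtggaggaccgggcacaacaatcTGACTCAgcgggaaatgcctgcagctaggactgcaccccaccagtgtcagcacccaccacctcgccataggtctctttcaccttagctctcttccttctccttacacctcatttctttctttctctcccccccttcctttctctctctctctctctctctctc
Haao to Zfp36l2, chr17:83989798-83990047: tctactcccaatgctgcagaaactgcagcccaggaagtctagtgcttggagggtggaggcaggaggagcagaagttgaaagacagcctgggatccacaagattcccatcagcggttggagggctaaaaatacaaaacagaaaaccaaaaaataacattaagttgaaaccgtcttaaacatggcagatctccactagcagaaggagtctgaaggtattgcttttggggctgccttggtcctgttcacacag
4930558K02Rik to Dnm3, chr1:162187120-162187369: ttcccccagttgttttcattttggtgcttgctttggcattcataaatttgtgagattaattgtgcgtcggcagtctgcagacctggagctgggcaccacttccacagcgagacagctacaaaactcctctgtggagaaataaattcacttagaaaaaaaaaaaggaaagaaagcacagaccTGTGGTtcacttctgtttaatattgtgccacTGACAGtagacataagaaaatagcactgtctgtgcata
Banf2 to Snx5, chr2:144160137-144160386: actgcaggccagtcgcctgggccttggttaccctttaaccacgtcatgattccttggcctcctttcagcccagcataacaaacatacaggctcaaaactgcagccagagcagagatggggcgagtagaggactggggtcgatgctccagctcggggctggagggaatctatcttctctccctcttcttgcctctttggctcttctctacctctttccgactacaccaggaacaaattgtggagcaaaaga
Eya1 to Msc, chr1:14503420-14503669: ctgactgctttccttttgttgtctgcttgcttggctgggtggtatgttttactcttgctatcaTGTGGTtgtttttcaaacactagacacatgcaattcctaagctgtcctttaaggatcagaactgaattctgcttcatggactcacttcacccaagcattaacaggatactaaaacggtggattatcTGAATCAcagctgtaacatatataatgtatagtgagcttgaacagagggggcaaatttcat

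The capitals mark a match to the AP-1 motif in the windows named Npvf to Nfe2l3 and Eya1 to Msc. They mark a RUNX match in 4930558K02Rik to Dnm3 and in Eya1 to Msc, and a MEIS/PBX match in 4930558K02Rik to Dnm3. The windows named Haao to Zfp36l2 and Banf2 to Snx5 held none of the 14 strings. Such matches are frequent: of 6384 desert regions at least 250 bp wide, 7.64% held the AP-1 string in their middle 250 bases, 17.4% the RUNX string and 16.7% the MEIS/PBX string, against 8.21%, 18.4% and 17.2% of 19812 other distal regions.

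The lists entering this comparison held 6571 to 25936 peaks, the number of reads behind them is unknown, and a stage holds different tissues rather than replicates of 1 tissue. At e15.5 the label and the names of the deposited peaks give different tissues for all 3 libraries, which are therefore called by what each was labelled and kept out of comparisons between nasal and jaw tissue. The peaks of the library labelled mandibular are named for the nose, those of the one labelled maxillary carry md and those of the one labelled nose carry mx, and which is right was not tested, so every value given for an e15.5 tissue may belong to the tissue of the peak name. Promoters of the facial mesenchyme regulators Twist1, Prrx1 and Msx1 carried a peak in all 10 libraries. Those of Hand2, Dlx5 and Dlx6, which mark the lower jaw, all carried one in the mandibular processes of e11.5 and e13.5 and in the e15.5 library labelled maxillary, while the e15.5 library labelled mandibular had none at Hand2. No library had a peak at the heart genes Myh6 and Nkx2-5, the liver gene Alb, the muscle gene Myod1 or the endothelial gene Cdh5. The forebrain and facial gene Emx2 had one in 8 libraries, the epithelial genes Epcam and Trp63 in 6 and 2, the muscle gene Myog in 2 and the endothelial gene Tek in 1. The e15.5 library labelled nose stands apart: peaks under 500 bp made up 74.0% of its desert peaks and 6.21% to 39.8% of those of the other 9 libraries.

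Desert regions were found in every library. They numbered 2365 in the medial and 2543 in the lateral nasal plate of e11.5, and 663 in the mandibular and 523 in the maxillary process of that stage. At e13.5 the mandibular process held 339, the maxillary process 296 and the nose 2808, the most of any library. At e15.5 the ones labelled mandibular, maxillary and nose held 1465, 1173 and 681. The nasal plates and the e13.5 nose therefore supplied most members: 4244 of the 6768 (62.7%) were seen in nasal but not in jaw libraries of e11.5 and e13.5, 497 (7.34%) in jaw but not nasal libraries, 788 (11.6%) in both, and 1239 (18.3%) in e15.5 libraries alone. The nasal lists are also longer, with 20489, 21686 and 25936 peaks, against 6571 to 10750 in the jaw libraries of the same stages. The same division was not counted for other distal regions. These shares therefore describe the libraries and show no trait of desert regions in particular.

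**Figure D1:**
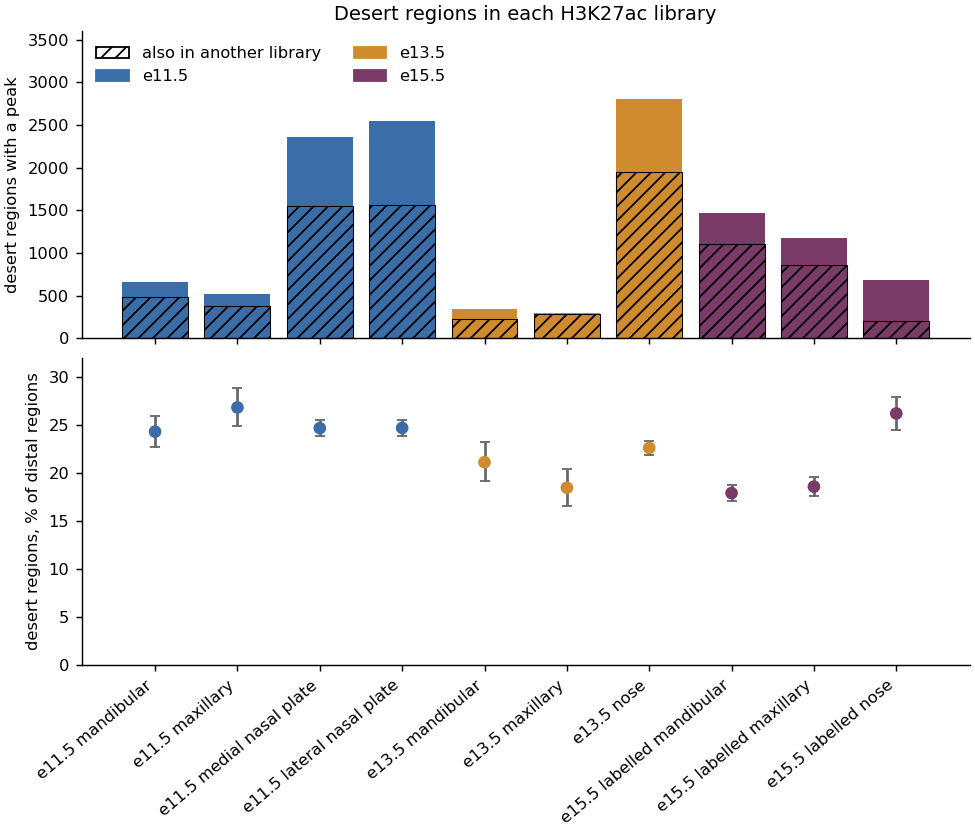
Number of desert regions with a peak in each library (top, hatched where the region is also found in another library) and desert regions as a percentage of the distal regions of that library with exact 95% binomial intervals (bottom). Counts were 2365 and 2543 in the medial and lateral nasal plates and 2808 in the nose of e13.5, while the share of distal regions ran from 17.9% to 26.8%.

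As a share of the distal regions of each library, desert regions made up 24.3% (exact 95% interval 22.7 to 26.0), 26.8% (24.9 to 28.9), 24.7% (23.8 to 25.6) and 24.7% (23.9 to 25.6) in the e11.5 mandibular process, maxillary process, medial and lateral nasal plate. They made up 21.1% (19.2 to 23.2), 18.5% (16.6 to 20.5) and 22.6% (21.9 to 23.4) in the e13.5 mandibular process, maxillary process and nose. In the e15.5 libraries labelled mandibular and maxillary they made up 17.9% (17.1 to 18.8) and 18.6% (17.6 to 19.6), and in the one labelled nose 26.2% (24.5 to 28.0). Intervals cover counting error only. The share averaged 25.1% ± 1.15 (SD, n = 4) for e11.5, 20.7% ± 2.10 (SD, n = 3) for e13.5 and 20.9% ± 4.61 (SD, n = 3) for e15.5. The slope over embryonic day was -1.11 percentage points per day and did not pass the test (exact two-sided permutation over 4200 arrangements, p = 0.0812, adjusted p = 0.135 over 10 tests). The e15.5 library labelled nose decided this: without it the slope was -1.78 points per day with an adjusted p of 0.00977 by the same exact permutation test. Nasal and jaw tissues of e11.5 and e13.5 did not differ beyond their spread, at 24.0% ± 1.19 (SD, n = 3) in nasal libraries and 22.7% ± 3.66 (SD, n = 4) in jaw libraries (exact permutation, p = 0.6, adjusted p = 0.667, smallest possible p 0.0286). That difference of 1.31 points changed sign without the e13.5 maxillary process (-0.113).

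Most members were seen in a single library, as were 57.5% of other distal regions. Of the 6768, 4267 (63.0%) had a peak in 1 library, 1052 in 2, 583 in 3, 334 in 4, 213 in 5, 117 in 6, 82 in 7, 48 in 8, 45 in 9 and 27 in 10. Regions in 1 library had a median width of 490 bp, those in 3 libraries 2211 bp and those in all 10 libraries 4660 bp, and the width of a merged region can only grow with the number of peaks merged. At least 2 libraries of the same stage shared 1682 desert regions (24.9%), against 28.2% of all distal regions and 29.4% of other distal regions. Of these 1682, 891 (53.0%, exact interval 50.6 to 55.4) were shared at e11.5 alone, 59 (3.51%) at e13.5 alone, 281 (16.7%) at e15.5 alone and 178 (10.6%) at all 3 stages. Alone means not shared at another stage, where 1 library may still have had a peak, so these shares do not show absence. For example, 394 regions shared at e11.5 had a peak in the nose of e13.5 but in neither jaw library of that stage. They therefore do not count as shared at e13.5. The e13.5 jaw libraries held only 339 and 296 desert regions. Among 6068 other distal regions counted the same way, 39.8% were shared at e11.5 alone, 2.52% at e13.5 alone, 23.8% at e15.5 alone and 15.7% at all 3 stages. Regions are not replicates, so this contrast was not tested.

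A peak in all 10 libraries was found at 27 desert regions (0.399%), against 218 other distal regions (1.05%). The widest desert region of all lies 506 kb beyond Npvf, which encodes a neuropeptide precursor, and 257 kb from Nfe2l3, a bZIP transcription factor gene (chr6:51160538-51175442, 14905 bp). Its peaks covered 5864 bp in the narrowest library, a median of 7800 bp and 13803 bp in the widest, the e13.5 nose, and their fold enrichment stood between percentile 66.3 and 96.0 of all peaks of the library. A 12430 bp region lies 135 kb from Haao, an enzyme gene of tryptophan breakdown, and 194 kb from Zfp36l2, which encodes an mRNA decay factor (chr17:83981318-83993747), with 3197 to 11753 bp covered (median 8234). Presence in every library did not mean strong enrichment in each: the Haao region stood between percentile 4.12 and 84.2, lowest in the e11.5 maxillary process.

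Several of the other members seen in all 10 libraries flank genes with known roles in the face. Those beside Gas1, Postn, Fbn2, Cxcl12, Sox4 and Ctnnb1 were picked out after their values were seen. The region between Eya1, a transcriptional coactivator gene, and Msc, a bHLH gene of pharyngeal arch muscle, is 7945 bp wide, 192 kb from Eya1 (chr1:14501837-14509781). Its peaks covered 2823 to 7305 bp in 9 libraries and 485 bp in the e15.5 library labelled nose. Gas1, a hedgehog co-receptor gene, has a member of this kind on each side, 3420 bp wide and 155 kb away toward Tut7 (chr13:60018051-60021470), and 4645 bp wide and 230 kb away toward Dapk1 (chr13:60407315-60411959). Others lie beside the matrix genes Postn (3353 bp, 208 kb away), Dcn (4730 bp, 163 kb) and Fbn2 (3161 bp, 183 kb), beside the chemokine gene Cxcl12 (2573 bp, 207 kb), beside Sox4 (4321 bp, 194 kb, inside the noncoding RNA gene 2610307P16Rik) and beside Ctnnb1, which encodes beta-catenin (4704 bp, 235 kb). The gene on the other side was nearer for Postn (Supt20, 104 kb), Fbn2 (Slc27a6, 160 kb) and Ctnnb1 (Rpl14, 118 kb). It was farther for Dcn (Btg1, 694 kb), Cxcl12 (Tmem72, 242 kb) and Sox4 (Gm11361, 498 kb). An intron of Dnm3, a dynamin gene, holds a region of 11143 bp 106 kb inside its nearest start. The region between Ubash3b and Sorl1 (chr9:41947863-41954722, 6860 bp) had the highest median percentile of these 27, at 97.0, with 4738 to 6440 bp covered in every library.

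Of the 5 widest members, 2 lacked a peak in 1 library and 1 was present in only 5. The region between Rad51b and Zfp36l1 (chr12:79837475-79849845, 12371 bp) and a second region between Npvf and Nfe2l3 (chr6:50975575-50987793, 12219 bp) had no peak in the e15.5 library labelled nose. The region 106 kb from Six2, a homeobox gene of facial mesenchyme and kidney, toward Srbd1 (chr17:85794718-85807381, 12664 bp) covered 11285, 3378 and 1675 bp in the e11.5 medial nasal plate, lateral nasal plate and maxillary process, then 10871 bp in the e13.5 nose and 9451 bp in the e15.5 library labelled mandibular. It had no peak in the other 5 libraries, among them both mandibular processes.

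The members fell into 1461 intervals between neighbouring protein-coding starts, with a median of 3 per interval, and 177 intervals with 10 or more members held 2808 of them (41.5%). Conversely, 1064 of 2531 gaps longer than 200 kb between protein-coding starts (42.0%) held no member. Over all chromosomes, desert sequence spans 975 Mb and held 6.94 regions per Mb, against 14.5 per Mb in 1427 Mb of other distal sequence. Chromosome 13 was the densest, with 10.7 desert regions per Mb of desert sequence, and chromosome X the sparsest, with 1.12.

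The interval with the most members, 64, lies on chromosome 12 between Rad51b, a DNA repair gene, and Zfp36l1, which encodes an mRNA decay factor. It is 815 kb long, or 78.5 members per Mb, and 39 of the 64 lie inside the long Rad51b gene. At e11.5 it held 28 and 30 members in the medial and lateral nasal plate, against 3 each in the mandibular and maxillary process. At e13.5 it held 7, 10 and 40 in the mandibular process, maxillary process and nose, and at e15.5 37, 39 and 6 in those labelled mandibular, maxillary and nose. Read against the desert regions of each library, these are 1.18% in each nasal plate and 0.452% and 0.574% in the mandibular and maxillary process of e11.5, then 2.06%, 3.38% and 1.42% for mandibular process, maxillary process and nose of e13.5, and 2.53%, 3.32% and 0.881% for the e15.5 libraries in the order just given. Of the 64, 45 were seen in 2 or more libraries, 15 in 5 or more, and 10 in each nasal plate and the nose of e13.5 while in no jaw library of those stages, the highest count of such regions in an interval.

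**Figure D2:**
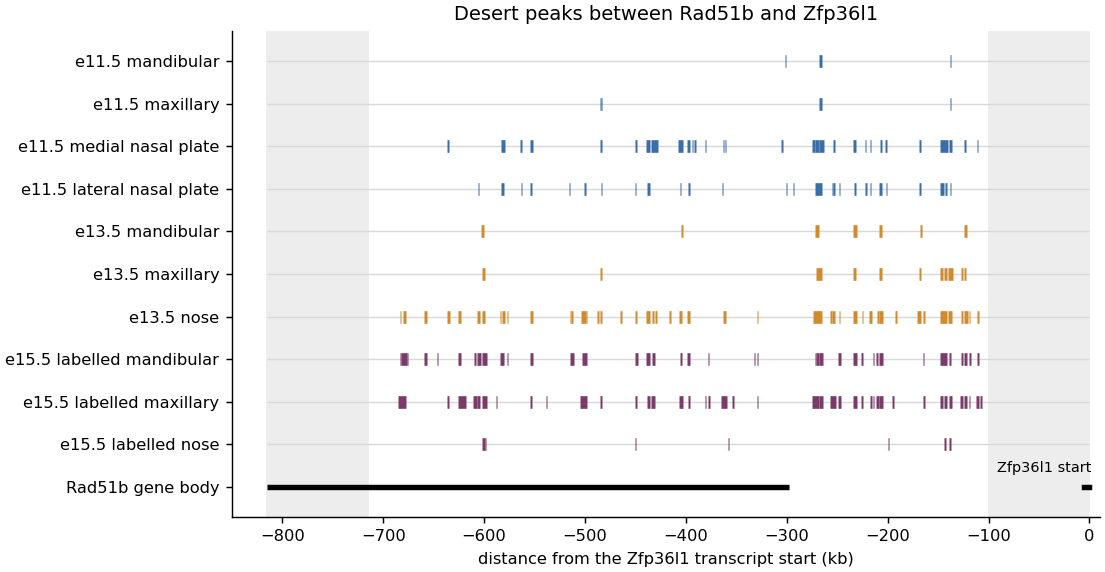
Peaks of desert regions between Rad51b and Zfp36l1 in each library, plotted by their distance in kb from the Zfp36l1 transcript start, with the Rad51b gene body as a bar and the 100 kb next to each start shaded, where no desert region can lie. The e13.5 nose had 40 members and the e11.5 jaw libraries 3 each, and 39 of the 64 members lie in the Rad51b gene body.

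The other intervals with the most members lie elsewhere in the genome. Between Rps24, a ribosomal protein gene, and Zmiz1, a coactivator gene, lie 39 members, of which 11 were seen in 5 or more libraries. Between Mpdz, a scaffold gene, and Nfib, a nuclear factor I gene, lie 35. Between Fat4, an atypical cadherin gene, and Intu, a planar polarity gene, lie 34, of which none was seen in either e13.5 jaw library and 19 were seen in the e13.5 nose. Those 19 are 0.677% of the desert regions of the e13.5 nose, and the e13.5 jaw libraries held 339 and 296 desert regions in all. With so few, an absence there says little. Between Cdh11, a mesenchymal cadherin gene, and Cdh5, an endothelial one, lie 32. The Npvf to Nfe2l3 interval also holds 32, and Ubash3b to Sorl1 32, of which 25 recurred in 2 or more libraries. Marcks to Rfpl4b and Zfp608 to Gramd3 hold 31 each. Between Wdr11 and Fgfr2, the receptor gene mutated in several human craniosynostosis syndromes, lie 29, of which 25 were seen in the e13.5 nose, 10 and 6 in the medial and lateral nasal plate and 0 to 3 in each jaw library of e11.5 and e13.5. As shares of the desert regions of each library, these are 0.890%, 0.423% and 0.236%, and 0 to 0.452% in the jaw libraries. The 10 intervals together held 359 members (5.30%), and their median length was 1015 kb, against 517 kb for all 1457 intervals with a gene on both sides.

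**Figure D3:**
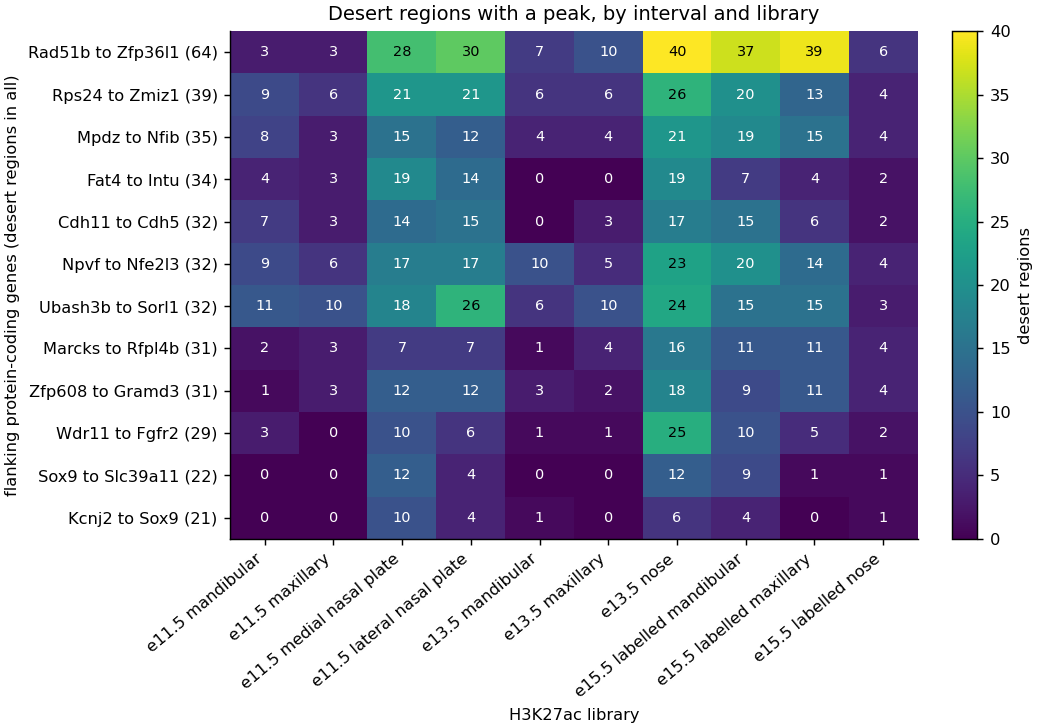
Number of desert regions with a peak in each library (columns) for the 10 intervals with the most members and the 2 intervals beside Sox9 (rows, total in brackets). The e13.5 nose column has the highest or joint highest count in every row but Ubash3b to Sorl1 and Kcnj2 to Sox9, and it is the library with the longest list.

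The deserts on each side of Sox9 held 43 members, 21 toward Kcnj2 and 22 toward Slc39a11. Before Sox9, in an interval of 1716 kb, the medial plate had 10, the lateral plate 4, the e13.5 nose 6, the e13.5 mandibular process 1 and the other jaw libraries of those stages none. At e15.5 the same interval had 4, 0 and 1 in those labelled mandibular, maxillary and nose. Beyond Sox9, the medial plate had 12, the lateral plate 4 and the e13.5 nose 12, with none in the jaw libraries of those stages, and 9, 1 and 1 in the e15.5 libraries labelled mandibular, maxillary and nose. The 12, 4 and 12 are 0.507%, 0.157% and 0.427% of the desert regions of their libraries, and the jaw libraries held 296 to 663 in all. Before Sox9 the share was 0.295% in the e13.5 mandibular process and 0.214% in the e13.5 nose. Of the 43, 15 were found in 2 or more libraries, 5 of the 21 toward Kcnj2 and 10 of the 22 toward Slc39a11. Of all members, 37.0% were found in 2 or more. None of the 43 was found in more than 4.

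Genes of 4 of 5 lists flanked desert regions more often than genes at large, and they also lie beside longer gaps. Of all 21681 protein-coding genes, 11% flanked at least 1 member and 4.36% at least 5. Of 93 craniofacial transcription factor genes, 68 (73.1%) flanked at least 1 and 49 (52.7%) at least 5, together 732 members. Of 69 signalling genes, 49 (71.0%) flanked at least 1 and 30 (43.5%) at least 5. Of 59 adhesion and synapse genes, 53 (89.8%) flanked at least 1 and 34 (57.6%) at least 5. Of 39 bone, cartilage and matrix genes, 16 (41.0%) flanked at least 1 and 11 (28.2%) at least 5, and of 36 ribosomal protein genes 4 (11.1%) and 2 (5.56%). The median of the longer gap beside a gene was 484, 413, 1969, 251 and 23.5 kb for these lists in that order, against 56.4 kb for all genes, and the part of gap length in these shares was not tested. The lists were chosen with earlier results of these data known.

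The members beside adhesion genes recurred less than those beside the other lists, as a description: 86 of 369 (23.3%) were seen in 2 or more libraries, against 285 of 732 (38.9%) beside transcription factor genes, 195 of 478 (40.8%) beside signalling genes, 67 of 145 (46.2%) beside matrix genes and 37.0% of all members. Beside the synaptic gene Lrrtm3, 13 members were each seen in 1 library, and beside Unc5d, a netrin receptor gene, 2 of 18 recurred. Cdh11, with 21 of 37 members in 2 or more libraries and 6 in 5 or more, and the protocadherin gene Pcdh18, with 9 of 16, went the other way.

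Among transcription factor genes, Runx2, the regulator of bone formation, flanked 44 members, followed by Sox9 with 43, Nfib with 35, Zfhx3 with 31 and Trps1, a GATA-type repressor gene of cartilage and face, with 24. Bcl11a, Myc, Tbx3, Tcf4 and Zeb2 flanked 22 each, and Sox5 and Sox6, which act with Sox9 in cartilage, 20 each. Beside Runx2, 17 and 20 members were seen in the medial and lateral nasal plate and 5 each in the mandibular and maxillary process of e11.5, then 24 in the nose, 1 in the mandibular process and 2 in the maxillary process of e13.5, and 6, 8 and 2 in the e15.5 libraries labelled mandibular, maxillary and nose. The e11.5 libraries held 2365, 2543, 663 and 523 desert regions in that order, and those of e13.5 2808, 339 and 296. Shares of each library were not computed for single genes, so these counts do not show a nasal excess. Twist1, a regulator of cranial mesenchyme, flanked 11, of which 9 recurred, and the most libraries reached by any of them was 8. Irx3 and Irx5, homeobox genes of 1 cluster, flanked 15 and 9, of which 14 and 8 were seen at e11.5 and 1 and 0 at e15.5. Msx2, a BMP target gene, flanked 9, of which 8 were seen at e11.5 and none at e15.5. Nfib had the opposite leaning, with 20 members seen at e11.5, then 22 at e13.5 and finally 25 at e15.5.

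Among signalling genes, the receptors Epha4 (35 members), Robo2 (32), Fgfr2 (31) and Robo1 (30) and the hedgehog co-receptor Gas1 (30) flanked the most. Members beside Gas1 recurred the most widely of these, with 19 in 2 or more libraries and 9 in 5 or more, while beside Robo1, a Slit receptor, 7 of 30 recurred and none reached 5 libraries. Robo1 and Robo2 are neighbours, and the 24 members between them, of which 7 recurred, count for both genes. Among ligands, Inhba flanked 25, Efna5 23, Slit3 23, Wnt5a 20, Tgfb2 19, Bmp2 11 and Jag1 11. Bmper, a BMP-binding protein, flanked 17, of which e11.5 libraries showed 14, e13.5 libraries 7 and e15.5 libraries 1. The shares of all members given above fall over the stages too. Smad7, an inhibitor of TGF-beta signalling, flanked 18, of which 5 reached 5 or more libraries.

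Among matrix genes, the proteases Adamts20 and Adamts5 flanked 25 and 14, Fbn2, a fibrillin gene, 16, Has2, which makes hyaluronan, 15, Tnc 14, Col12a1 13, Dcn 10, Matn1 7, Postn 7, Col3a1 6 and Hapln1 6. Their counts over the stages ran in opposite directions. Beside Has2, e11.5 libraries showed 13 members, e13.5 libraries 8 and e15.5 libraries 2, whereas beside Postn 2, 2 and 7 were seen and beside Col3a1 1, 1 and 6. Beside Fbn2 they numbered 5, 13 and 11. The share of all members fell as well, from 60.8% at e11.5 to 44.0% at e13.5 and 37.9% at e15.5. The e11.5 stage holds 4 libraries and the later stages 3 each, with unequal lists, so these are counts without a test. The 2 ribosomal protein genes with 5 or more members were Rps24 with 39 and Rpl14, beside Ctnnb1, with 9.

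At e15.5 but not at e11.5, a peak in all 3 libraries and in 0 of 4 marked 22 desert regions, 0.325% of the members, against 0.536% of all distal regions. The widest lies in an intron of Erc2, a presynaptic gene (chr14:27764483-27768338, 3856 bp), with 3637, 1712 and 813 bp covered in the e15.5 libraries labelled mandibular, maxillary and nose and 3262 bp in the e13.5 nose. The next lies 103 kb from Btg1, an antiproliferative gene, toward Dcn (3379 bp), the third 127 kb from Zfp703 toward Thap1 inside the noncoding RNA gene 2310008N11Rik (3285 bp), the fourth in an intron of Vwa8 (3188 bp) and the fifth 138 kb from Slc27a6, a fatty acid transporter gene, toward Fbn2 (2930 bp). Of the 22, 16 were also seen in the e13.5 nose, 3 in the e13.5 mandibular process and 2 in the e13.5 maxillary process. Those beside listed genes flank Osr1, a gene of palate and kidney (2 regions), Postn, Dcn, Fbn2, Gas1, Fgfr2 and Tenm2 (1 each). This count rests on the short list of the e15.5 library labelled nose: without that library, 178 desert regions qualified, while 34 did without the one labelled mandibular and 37 without the one labelled maxillary.

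Absence from all 3 e15.5 libraries together with a peak in all 4 of e11.5 marked 49 desert regions, 0.724% of the members, against 0.572% of all distal regions. The widest lies 158 kb from Cops8 and 235 kb from Ackr3, which encodes a scavenging chemokine receptor (chr1:90438731-90444538, 5808 bp). It covered 3204, 2790, 4963 and 4211 bp in the e11.5 mandibular process, maxillary process, medial and lateral nasal plate, and 5418 bp in the e13.5 nose. The next lies in the Smyd3 gene, where it overlaps an exon, toward Kif26b (4566 bp), the third 228 kb from Osr1 toward Ttc32 (4423 bp), the fourth 221 kb from Sox11 toward Dcdc2c (4348 bp), and the fifth 280 kb from Bcl11a (4114 bp). Of the 49, 47 were still seen in the e13.5 nose, 11 in the e13.5 maxillary process and 2 in the e13.5 mandibular process. Runx2 flanked 4 of them, 2 on each side, and no other listed gene more than 1. Without the e11.5 maxillary process 131 qualified, and without the e11.5 mandibular process 99.

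A peak in each nasal plate and in the nose of e13.5 but in no jaw library of e11.5 or e13.5 was found at 394 desert regions, 5.82% of the members, against 6.35% of all distal regions. The widest lies 143 kb from Alx1, a homeobox gene of the frontonasal region, toward Rassf9 (chr10:102876428-102885613, 9186 bp). It covered 6786, 6543 and 8089 bp in the medial nasal plate, lateral nasal plate and e13.5 nose, and at e15.5 9186, 5100 and 1503 bp in those labelled mandibular, maxillary and nose. The others among the 5 widest lie in introns of Smyd3 (7205 bp) and Hpse2 (6649 bp), 251 kb from Zfp36l1 toward Rad51b (6367 bp), and 115 kb from Moxd1 toward Ccn2, a matricellular growth factor gene (6289 bp). Of the 394, 155, 101 and 16 were also seen in the e15.5 libraries labelled mandibular, maxillary and nose. After Rad51b to Zfp36l1 with 10, the intervals with the most were Cmpk2 to Sox11 and Rps24 to Zmiz1 with 6 each. Listed genes flanking the most were Rps24 (6), Runx2 and Adamts20 (5 each) and Sox5 (4). With the same number of peaks taken from every library 3 regions qualified, and 632 to 678 did when either nasal plate or the e13.5 nose was left out.

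Libraries of the same facial region shared more desert regions on average than libraries of different regions, though the mandibular libraries did not. Shared membership was measured by the Jaccard index, the number of regions in both libraries over the number in either. At e11.5 and e13.5 it averaged 0.245 within mandibular, maxillary or nasal tissue and 0.123 between them, a difference of 0.122 (exact permutation over 210 arrangements, p = 0.0190, adjusted p = 0.0381). The largest overlaps were between the medial and lateral nasal plate (0.314, 1172 shared regions) and between the medial nasal plate and the e13.5 nose (0.303, 1203 shared). The maxillary processes of e11.5 and e13.5 had an index of 0.213, and the mandibular processes 0.111, below the mean between regions. The mandibular and maxillary processes of e11.5 had 0.218. The nasal libraries are also the longest lists, and the call was lost with lists of equal length (0.0623, adjusted p = 0.190, exact permutation), with a −log10 q of at least 2 (0.149, adjusted p = 0.0571) and on leaving out any 1 of the 7 libraries except the e11.5 mandibular process (0.0745 to 0.144). For other distal regions the corresponding difference was 0.131, and the 2 differences did not differ detectably (-0.00954, adjusted p = 0.452, exact permutation). Libraries of the same stage shared desert regions at a mean index of 0.156 and libraries of different stages at 0.129 (difference 0.0269, exact permutation, p = 0.191, adjusted p = 0.273). With equal numbers of peaks the stage difference was 0.10 with an adjusted p of 0.0143, and without the e13.5 nose 0.0601 with an adjusted p of 0.0258, both by the same exact permutation.

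Compared with other distal regions of the same library, desert regions recurred less and ranked lower in enrichment. The share also found in another library was 28.9% to 96.3% for desert regions and 51.4% to 98.2% for other distal regions, and it was lower for desert regions in 10 of 10 libraries, with a mean difference of -7.56 percentage points (exact paired permutation over all sign changes, p = 0.00195, the smallest this design allows, adjusted p = 0.00651). The gap was widest in the e15.5 library labelled nose, at 28.9% and 51.4%, and narrowest in the one labelled mandibular, at 75.4% and 75.5%. The median fold enrichment of desert peaks stood at percentile 30.1 ± 4.7 of all peaks of their library and that of other distal peaks at 33.8 ± 3.3 (SD, n = 10), lower in 10 of 10 libraries (difference -3.75, adjusted p = 0.00651 by the same exact permutation). In fold units the medians averaged 3.13 and 3.19. Both results held under every alternative that was run. The same regions recur between libraries, so the 10 paired differences are not fully independent.

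**Figure D4:**
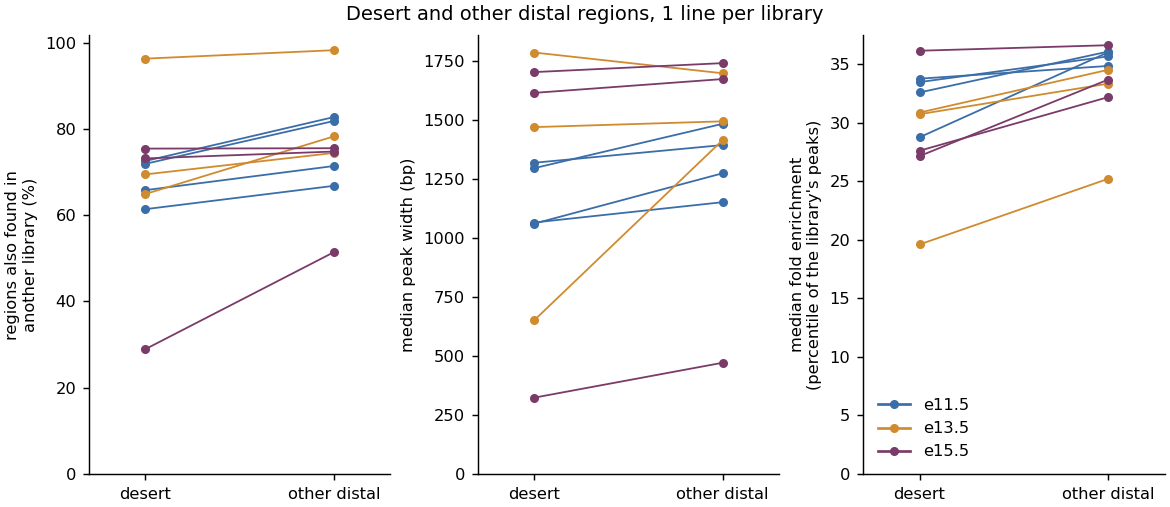
Share of regions also found in another library, median peak width and median fold-enrichment percentile, for desert regions (left of each panel) and other distal regions (right), 1 line per library coloured by stage. The share and the percentile were lower for desert regions in 10 of 10 libraries, and the width in 9 of 10.

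Desert peaks were also narrower in 9 of 10 libraries, with a mean of the library medians of 1228 bp, against 1379 bp for other distal peaks (difference -151 bp, exact paired permutation, p = 0.0176, adjusted p = 0.0381). The exception was the e13.5 maxillary process, at 1785 and 1697 bp, and the largest gap was in the e13.5 mandibular process, at 650.5 and 1414 bp. Without the e13.5 mandibular process the mean difference was -82.3 bp and the adjusted p 0.0703. The call was lost as well without any 1 of the e11.5 libraries or the e15.5 library labelled nose (adjusted p 0.0586 to 0.0879 by the same exact permutation), with a −log10 q of at least 2, with equal numbers of peaks, with a limit of 50 kb (-84.7 bp, adjusted p 0.111) and with peaks up to 1 kb apart merged (-139 bp, adjusted p 0.0664, each by the same exact permutation). With a limit of 200 kb the difference was -251 bp and passed.

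Recurrence was lower at greater distance from protein-coding starts, as a description. The median distance of a member to its nearest protein-coding start was 190 kb, and the farthest, between the protocadherin genes Pcdh20 and Pcdh9 and seen only in the e15.5 library labelled nose, lay 2546 kb away. Between 100 and 200 kb lay 3590 members, of which 39.7% were seen in 2 or more libraries, with a median region width of 1110 bp. Between 200 and 500 kb lay 2549 (36.8%, 952 bp), between 500 and 1000 kb 520 (24.4%, 474 bp), and beyond 1000 kb 109, of which 11 (10.1%) recurred, with a median width of 317 bp. Of those 109, 32 were seen in the e15.5 library labelled nose, the library of short peaks, and 28 and 23 in the medial and lateral nasal plate. Just inside the limit, at 100 to 110 kb, lay 576 members with a median width of 1125 bp, of which 40.8% recurred. Just outside, at 90 to 100 kb, lay 663 regions with a median width of 1263 bp, of which 45.7% recurred.

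Despite the name, many members lie inside a protein-coding gene, far from its starts. Introns held 1769 members (26.1%), 149 (2.2%) overlapped an exon and 4850 (71.7%) lay outside protein-coding gene bodies, against 47.4%, 10.9% and 41.8% of other distal regions. Long noncoding RNA genes overlapped 856 members (12.6%), against 7.28% of other distal regions. For 291 members (4.30%) the starts on both sides belonged to 1 gene with distant alternative promoters.

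The sequence of desert peaks was richer in A and T. GC content averaged 45.6% ± 0.6 in desert peaks and 48.6% ± 0.6 in other distal peaks (SD, n = 10), lower in 10 of 10 libraries (difference -2.99 points, exact paired permutation, p = 0.00195, adjusted p = 0.00651), and this held under every alternative run. Bases masked as repeats in the RefSeq sequence averaged 14.9% and 16.6%.

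Matches per kb to 14 transcription factor motifs, searched as fixed strings on both strands, were compared within each library, and 9 differed. The strings were TAATTA for homeodomain proteins, the paired homeodomain dimer (the same core in inverted copies 3 bases apart), CAGATG for the E-box of Twist and neural bHLH factors, and GCCNNNGGC for AP-2. AP-1 was TGANTCA, TEAD was GGAATG, SOX was ACAATG, TCF/LEF was TCAAAG and forkhead was TGTTTAC. Nuclear factor I was searched by its full palindrome, RUNX was TGTGGT, MEIS/PBX was TGACAG, the nuclear receptor half-site was AGGTCA, and EBF was its palindrome. A match to the dimer can contain the homeodomain string, and matches to different strings may overlap.

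Desert peaks held more matches to the motifs of homeodomain, SOX, TCF/LEF, TEAD and forkhead factors and of the paired dimer. The homeodomain string occurred 0.307 ± 0.025 times per kb in desert peaks and 0.225 ± 0.019 in other distal peaks (SD, n = 10), a difference of 0.0820, and the SOX string 0.609 ± 0.022 and 0.50 ± 0.020 times, a difference of 0.108. The TCF/LEF string, bound by the effectors of Wnt signalling, occurred 0.869 ± 0.041 and 0.744 ± 0.036 times. The TEAD string, bound by effectors of the Hippo pathway, occurred 0.715 ± 0.062 and 0.663 ± 0.013 times, a difference of 0.0524. The e15.5 library labelled nose, at 0.884 and 0.670, carried much of this, and without it the TEAD difference was 0.0346 and still passed. Fewer matches were found to AP-2 (0.263 ± 0.017 and 0.362 ± 0.022 per kb), to the nuclear receptor half-site (0.573 ± 0.036 and 0.668 ± 0.014) and to EBF (0.0272 and 0.0360). All 9 went the same way in 10 of 10 libraries, with an exact paired permutation p of 0.00195, the smallest possible, and an adjusted p of 0.00304 over 14 motifs. Regions shared between libraries give some of the same bases to each. For motifs and for GC content, the 10 paired differences are therefore not fully independent.

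Many of these strings are themselves rich in A and T or in G and C, so the densities were also compared after the other distal peaks of each library had been standardised to the GC makeup of its desert peaks, a step chosen after seeing the data. The excess of TEAD (0.0508 per kb, with 0.201 in the e15.5 library labelled nose and 0.00534 to 0.0769 in the others), TCF/LEF (0.0617) and SOX (0.0356) then remained in 10 of 10 libraries, and the deficit of the nuclear receptor half-site (-0.0414) likewise (adjusted p = 0.00547 each, exact paired permutation). The MEIS/PBX string was higher by 0.0406 per kb in 10 of 10 libraries with the same adjusted p, whereas before standardisation it differed by 0.00177 (adjusted p = 0.820, exact permutation). The homeodomain difference shrank to 0.00703 and no longer passed (adjusted p = 0.0729, exact permutation), and those of the paired dimer, forkhead, AP-2 and EBF were lost too (adjusted p = 0.320, 0.764, 0.622 and 0.811). The E-box was higher by 0.0350 per kb (adjusted p = 0.0319) and AP-1 lower (difference -0.0161 per kb, adjusted p = 0.0430), each in the exact paired permutation. A match to a string is no evidence of binding.

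**Figure D5:**
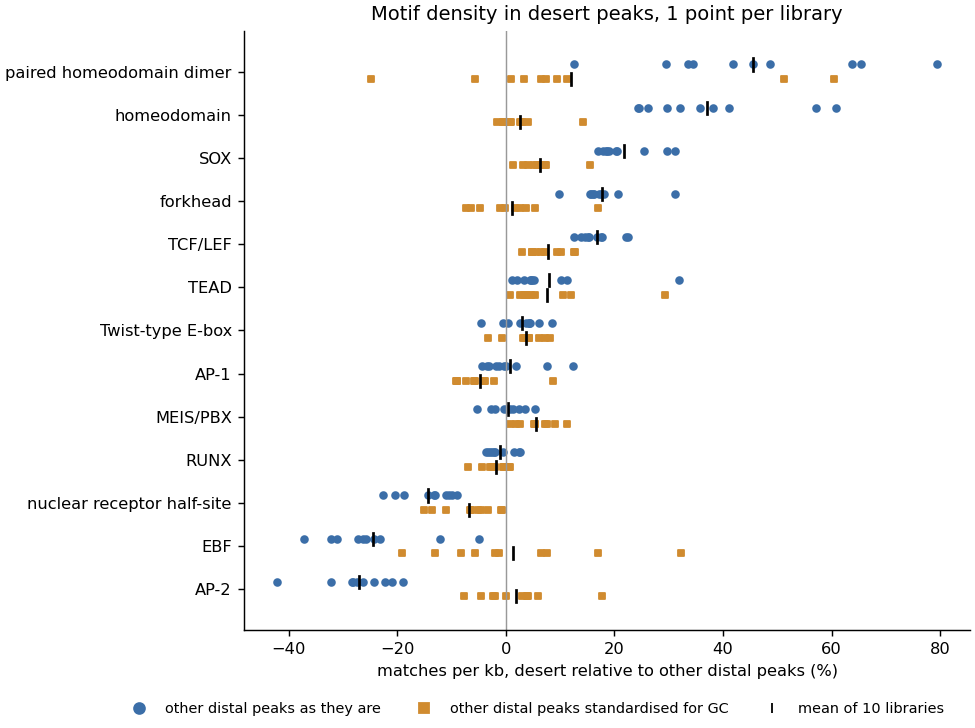
Matches per kb in desert peaks relative to other distal peaks, in percent, for 13 motifs, with 1 point per library, before (circles) and after (squares) the other distal peaks were standardised for GC, and black ticks for the mean of 10 libraries. Nuclear factor I, with too few matches to draw, is left out. The means of homeodomain, AP-2 and EBF lie far from 0 before and near 0 after, while TEAD, SOX and TCF/LEF stay above 0 in every library.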

How the data were processed

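H3K27ac ChIP-seq of freshly dissected, crosslinked and sonicated WT mouse facial tissue had been read on an Illumina instrument, and 10 peak lists were used. MACS2 2.2.4, BWA 0.7.7 and SAMtools 0.1.19 are listed with mm10 (GRCm38) in the notes of the submitters on processing, with no settings there. The methods of the study give broad peak calling under a q-value limit for reads mapped to the human genome, and whether the mouse lists were made the same way is not stated. The deposited lists give each peak a fold enrichment (a ratio), a −log10 p and a −log10 q as the authors' peak caller wrote them. The deposited score of each peak was not used. No peak had a −log10 q under 1.30, peaks were called per library, and read depth is unknown, so the length of a list limits what a missing peak means. The 10 input samples were not analysed here.

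Of 144896 peaks, 144824 on chromosomes 1 to 19 and X were merged where they overlapped or touched (checked against bedtools 2.31.1), and a region counted as present in a library with any overlapping peak. Distances are to GENCODE vM21 transcript starts, and sequence was read from the RefSeq copy of GRCm38. Analyses ran in Python 3.11.15 with scipy 1.17.1, numpy 2.4.6, matplotlib 3.10.9 and pandas 2.3.3. The slope test, the paired test and the motif search were tested on simulated data. Groups came from the labels. Single values were tested by exact two-sided permutation over libraries with Benjamini-Hochberg adjustment, over 10 tests or 14 motifs, at 0.05. There was 1 library per tissue and stage, so p-values measure the spread between libraries. Named were the 10 intervals with the most members, the 12 widest members with a peak in all 10 libraries, the 5 widest members overall and in each class of change, and listed genes flanking at least 5 members. Alternatives were equal list lengths, a −log10 q of 2 or more, limits of 50 and 200 kb, regions outside gene bodies, merging within 1 kb, a stricter overlap, the e15.5 libraries added as labelled, and leaving out each library. The members and lists were chosen with earlier results of these data known. Some members and genes that these rules select are not reported here.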

Additional observations from a re-analysis of the deposited data

Results flagged for a closer look

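The share of desert regions among distal regions was 26.8% in the e11.5 maxillary process, against 24.3%, 24.7% and 24.7% in the other e11.5 libraries, a gap to the nearest library that is large for the range of the group by Dixon's criterion. Chance alone picks out about 1 in 20 groups by this criterion, and 9 measures were examined for the 4 e11.5 libraries. Groups of 3 libraries were not examined.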

How the results depend on the processing

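The lower recurrence (-11.2 to -5.20 points), enrichment percentile (-5.87 to -3.12) and GC content (-3.69 to -2.28 points) of desert regions kept their direction and passed under every alternative run. Leaving out 1 library at a time gave a stage slope of -1.78 to -0.875 points per day, a nasal minus jaw share of -0.113 to 2.70 points, a width difference of -177 to -82.3 bp, a same-stage Jaccard difference of 0.0145 to 0.0601 and a same-region one of 0.0745 to 0.177, desert minus other distal values of these of -0.00412 to 0.00530 and -0.0206 to 0.000909, and 22 to 178 gained, 49 to 131 lost and 394 to 678 nasal regions. The counts moved most without the e15.5 library labelled nose (178 gained), the e11.5 maxillary or mandibular process (131 or 99 lost) and the lateral or medial nasal plate or e13.5 nose (nasal). The slope was -0.351 with a limit of 200 kb, and the nasal minus jaw share 4.12 with a −log10 q of at least 2, 4.16 outside gene bodies and 3.35 with the e15.5 libraries added, none past the threshold. The width call was lost with a −log10 q of at least 2, equal list lengths, 50 kb and merging within 1 kb, and held at 200 kb (-251 bp). The same-region call was lost with a −log10 q of at least 2, equal list lengths and the e15.5 libraries added. The TEAD difference was 0.121 with a −log10 q of at least 2, 0.0330 with 50 kb and 0.0346 without the e15.5 library labelled nose, and passed in each. With equal list lengths the nasal minus jaw share was -2.14, the width difference -51.7 bp, the same-stage and same-region Jaccard differences 0.10 and 0.0623, the desert minus other distal values -0.0106 and 0.0155, and 5 gained and 3 nasal regions were found. With a −log10 q of at least 2 the width difference was -121 bp and the same-region difference 0.149, with 3 gained and 28 lost. With a limit of 50 kb the width difference was -84.7 bp, with 41 gained, 83 lost and 719 nasal. With 200 kb there were 6, 23 and 178, and the same-stage value for desert minus other distal was -0.00370. Outside gene bodies 14 were gained, and 14 where a peak had to cover most of the region. With peaks within 1 kb merged the width difference was -139 bp. With the e15.5 libraries added as labelled the same-region difference was 0.0223 and its desert minus other distal value 0.00879. Standardising for GC, chosen after seeing the data, left 4 of the 9 motifs past the threshold, brought in 3 others (MEIS/PBX, the E-box and AP-1) for a total of 7, and turned the sign of AP-2 (0.00421), AP-1 (-0.0161) and EBF (0.000346). The causes were not tested. No paired analysis was possible because the labels give no replicate numbers and each tissue and stage has 1 library, and the paired tests of the report pair desert with other distal regions within a library. Read depth is unknown, so a missing peak does not show a missing mark.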
